A study of Mus musculus with 8 samples.

Results

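The genes described here are the 9 genes that carry methionine through the liver's methionine cycle and transsulfuration pathway to taurine, namely Mat1a, Mat2a, Gnmt, Ahcy, Bhmt, Cbs, Cth, Cdo1 and Csad. They were chosen by name, and all 9 were found among the 55450 genes of the count files and passed the filter on low counts, which left 15468 genes to test. RNA-seq read counts were available for 8 libraries of primary hepatocytes isolated from C57BL/6 mice at postnatal week 8. The LSKO genotype was Alb-cre(+/+);Slc39a8(F/F), in which a Cre recombinase driven by the albumin promoter removes floxed Slc39a8 in hepatocytes. The WT genotype was Slc39a8(F/F), with the floxed gene but without Cre. Slc39a8 encodes ZIP8, a membrane transporter of manganese, iron, zinc and selenite. The groups were LSKO cells given MnCl2, FeCl2, sodium selenite or ZnCl2 (1 library each, at 2 µM for 24 h), untreated LSKO cells (2 libraries) and untreated WT cells (2 libraries). All cultures received 10 µM dexamethasone, a synthetic glucocorticoid. No metal was given to WT cells, no culture time is stated for untreated cells, and the sources do not say whether the libraries of a genotype came from separate animals, so the spread between replicates may be technical.

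In the methionine cycle, methionine adenosyltransferases join methionine to adenosine and form S-adenosylmethionine (SAM), the methyl donor of the cell. Transfer of the methyl group leaves S-adenosylhomocysteine, which is split to homocysteine. Homocysteine is either methylated back to methionine or passed through transsulfuration to cysteine, which the hepatocyte uses for glutathione, for protein and, after oxidation of its thiol, for taurine. The liver is the main site of this metabolism, and the same transsulfuration enzymes also handle selenomethionine-derived selenohomocysteine and selenocystathionine.

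The libraries held between 19943899 and 27731054 reads in genes. The manganese library stood apart in how its reads were assigned: 72.19% of its reads were in genes and 4.48% in no feature, against 39.3% to 42.07% and 42.32% to 45.65% in the other 7. The manganese library and both untreated LSKO libraries had 62, 0 and 0 reads set aside for low alignment quality, against 592678 to 680199 in the iron, selenite, zinc and WT libraries. Reads not aligned split the same way, at 8.79%, 9.44% and 10% in the manganese and untreated LSKO libraries, against 4.125% to 4.94% in the rest. Both splits fall between untreated LSKO and the WT, iron, selenite and zinc libraries. In comparisons across that line, their part cannot be told apart from genotype or treatment. The part of the manganese read assignment in the results was not tested. Slc39a8 itself was at 3.18, 2.34, 1.48 and 1.83 normalised CPM (read counts scaled to library size and to the composition of the library) in the manganese, iron, selenite and zinc libraries and at 8.15 and 1.88 in untreated LSKO libraries 1 and 2, against 12.7 and 15.5 in WT. LSKO replicate 1 therefore kept 0.577 of the mean WT level and replicate 2 kept 0.133. The 8 hepatocyte markers were present in every library, and their summed level was 44218, 31954, 52458 and 38752 normalised CPM with manganese, iron, selenite and zinc and 30850 and 38851 in untreated LSKO, against 22597 and 21659 in WT. Alb made up most of this sum, at 17689 to 43256 over the 8 libraries. Markers of sinusoidal endothelium summed to 198, 106, 144 and 139 with the 4 metals in the same order and to 213 and 166 in untreated LSKO, against 262 and 279 in WT. Kupffer cell and macrophage markers summed to 723, 519, 538 and 436, and to 392 and 446, against 355 and 336. Cd68 and Cd14 made up most of this sum, at 263 and 192 with iron. Other markers of this list did not follow the sum with iron. Clec4f was at 6.37, against 12.1 and 20.6 in untreated LSKO, and Vsig4 at 2.64, against 7.13 and 7.20, while Marco was at 11.5, against 8.01 and 7.61. Stellate and fibroblast markers summed to 44.4, 18.9, 44.8 and 35.8, and to 47.9 and 44.1, against 47.0 and 48.9. Bile duct markers summed to 43.1, 26.0, 71.5 and 42.9, and to 65.9 and 49.4, against 83.5 and 88.0.

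Promoter windows from RefSeq (GRCm38.p6, 250 bases before to 50 after the start) were found for 6 of the 9 genes. The windows of Gnmt, Ahcy and Bhmt are shown because these neighbouring enzymes moved together between LSKO and WT cells, and that of Mat2a because it did not pass the test there. All 4 lie on the minus strand and are written 5′ to 3′ in the direction of transcription, with matches to the searched motifs in capitals. The windows are chr17:46729116-46729415 for Gnmt, chr2:155074448-155074747 for Ahcy, chr13:93637709-93638008 for Bhmt and chr6:72439507-72439806 for Mat2a.
Gnmt: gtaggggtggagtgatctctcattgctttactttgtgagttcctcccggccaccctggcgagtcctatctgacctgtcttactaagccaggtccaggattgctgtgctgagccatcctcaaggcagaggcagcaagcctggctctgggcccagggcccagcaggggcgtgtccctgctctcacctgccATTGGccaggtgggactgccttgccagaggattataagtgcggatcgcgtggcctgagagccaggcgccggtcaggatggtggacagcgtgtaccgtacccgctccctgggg
Ahcy: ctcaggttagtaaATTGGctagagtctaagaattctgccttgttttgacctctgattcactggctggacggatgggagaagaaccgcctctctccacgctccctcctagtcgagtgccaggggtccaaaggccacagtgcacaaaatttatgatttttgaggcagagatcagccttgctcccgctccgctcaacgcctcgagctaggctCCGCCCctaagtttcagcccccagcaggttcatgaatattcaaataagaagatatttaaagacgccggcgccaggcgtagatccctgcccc
Bhmt: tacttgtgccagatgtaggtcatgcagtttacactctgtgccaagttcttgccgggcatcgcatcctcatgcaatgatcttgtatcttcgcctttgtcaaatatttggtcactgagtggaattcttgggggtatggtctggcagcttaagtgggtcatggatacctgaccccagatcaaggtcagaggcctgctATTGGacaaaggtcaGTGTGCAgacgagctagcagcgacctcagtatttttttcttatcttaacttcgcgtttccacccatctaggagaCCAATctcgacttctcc
Mat2a: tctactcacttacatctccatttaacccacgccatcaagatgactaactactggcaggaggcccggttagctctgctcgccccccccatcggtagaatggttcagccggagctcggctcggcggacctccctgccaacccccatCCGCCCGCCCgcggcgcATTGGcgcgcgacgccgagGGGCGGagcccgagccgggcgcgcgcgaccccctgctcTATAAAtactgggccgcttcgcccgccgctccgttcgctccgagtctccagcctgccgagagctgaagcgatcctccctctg
A CCAAT box (CCAAT, or ATTGG on the other strand) was found in all 4 windows. The reverse-strand match began 62 bases before the start in Gnmt, 56 in Bhmt, 89 in Mat2a and 237 in Ahcy, and Bhmt held another 33 bases after its start. This motif occurred in 37.4% of all 32851 RefSeq promoter windows. Of the windows shown, the GC box (GGGCGG), in 35.7% of all windows, was found in Ahcy and, at 3 positions of which 2 overlap, in Mat2a. Only Mat2a of the 6 genes held TATAAA, a motif of 13.6% of windows. Bhmt had a reverse-strand match to a metal response core (TGCACNC), present in 12.6% of windows, and the window of Cbs held the E-box CACGTG of 7.15% of windows. No match to the other metal response core (TGCGCNC, 15.4% of windows), the antioxidant response core (TGACNNNGC, 12.4%), the C/EBP motif (TTGCNNCAA, 2.08%) or the ATF4 motif (TGATGNAAT, 0.965%) lay in any of the 6 genes' windows. The windows of Mat2a and Gnmt were 67% and 62% G or C with 34 and 11 CpG dinucleotides, and those of Ahcy and Bhmt were 52.7% and 48% with 13 and 8, against medians of 52.7% and 7 over all windows.

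Scaled to the length of exon, so that genes can be compared with each other, the 9 genes spanned more than 2 orders of magnitude in each LSKO library. Cdo1, the cysteine dioxygenase that commits cysteine to oxidation, had the highest length-scaled level in all 6 LSKO libraries, from 185 to 402 normalised CPM per kb. In both WT libraries it ranked the fourth, at 67.1 and 61.0, behind Ahcy, Mat2a and Cth. Ahcy followed Cdo1 in every LSKO library at 113 to 200.2 per kb. Bhmt and Csad, the betaine methyltransferase and the decarboxylase that forms hypotaurine, were lowest, at 0.585 to 2.61 and 1.34 to 2.61 per kb. Cdo1 stood at 3.41 to 8.07 times the length-scaled level of Cth in LSKO libraries, against 0.952 and 0.944 times in WT. The 9 genes together took 1303 to 1901 normalised CPM in LSKO libraries, against 1013 and 981 in WT.

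**Figure D1:**
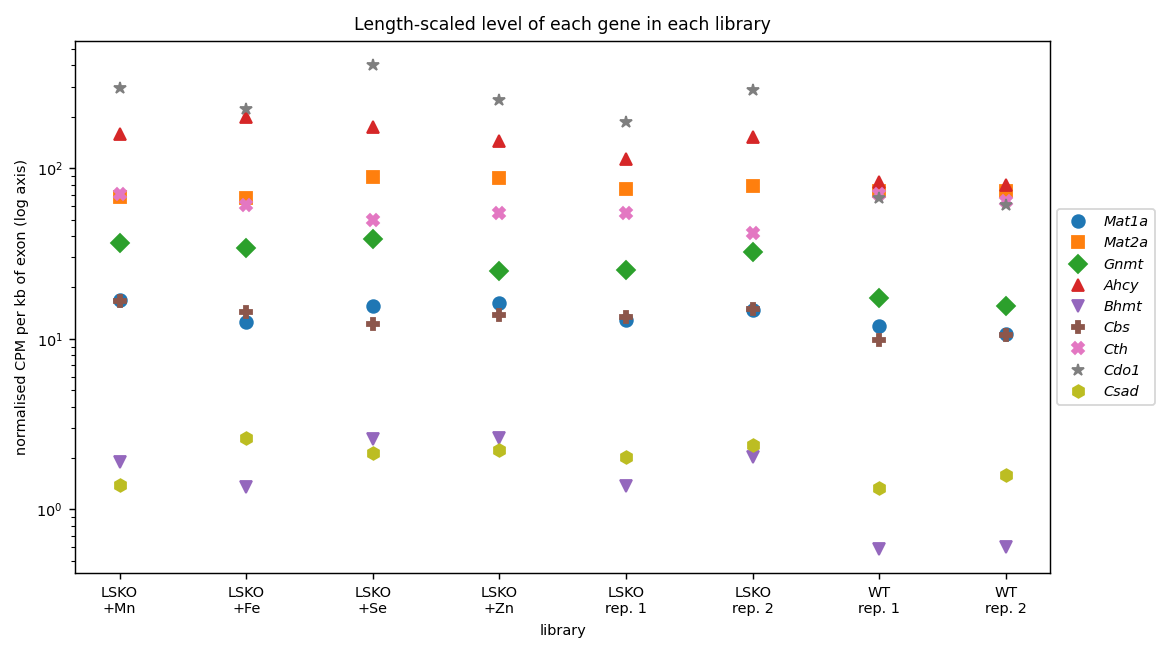
Level of each of the 9 genes in each library, as normalised CPM per kb of exon on a log axis, with 1 point per gene and library. Cdo1 is the top point in all 6 LSKO libraries (185 to 402) and lies at 67.1 and 61.0 in the WT libraries.

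The adult liver form of methionine adenosyltransferase is Mat1a, and Mat2a is the form of other tissues and of dividing or dedifferentiating hepatocytes. Here Mat2a exceeded Mat1a in every library. Its length-scaled level was 4.06, 5.36, 5.68 and 5.39 times that of Mat1a with manganese, iron, selenite and zinc and 5.90 and 5.29 times in untreated LSKO, against 6.18 and 6.89 times in WT, so the WT libraries held the 2 highest ratios. Of the exon bases of Mat2a, 11.3% overlap the opposite-strand gene Particl, with 6 reads under manganese against 532 to 898 elsewhere. How strand was treated in counting is not given in the sources used here, and the part of this overlap in the manganese ratio was not tested.

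In untreated LSKO cells, 5 of the 9 genes were higher than in WT, at an adjusted p under 0.05 and a log2 difference over 0.5, and none was lower. Over all genes tested, 6.74% were called higher and 3.7% lower. The median difference of the 9 genes was 0.60 on the log2 scale, against 0.003 over all genes. The genes called higher belong to SAM use (Gnmt, Ahcy), betaine-dependent remethylation (Bhmt) and cysteine oxidation to taurine (Cdo1, Csad), while the SAM-forming and transsulfuration genes did not pass. This division depends on the threshold. Cbs (0.48) and Cth (-0.49) had an edgeR adjusted p under 0.05 and missed only the log2 limit of 0.5. The Csad and Ahcy calls were lost under 5 and 3 of 15 alternatives. The sum of hepatocyte markers was also higher in LSKO, with 6 of its 8 genes called higher and a median log2 difference of 0.83. Of the endothelial markers, 3 of 8 were lower. Among Kupffer cell and macrophage markers 1 of 9 tested was higher and none lower. Stellate and fibroblast markers had 1 of 8 higher and 1 lower, and bile duct markers 1 of 3 tested lower. Pericentral hepatocyte markers summed to 181 and 252 normalised CPM in LSKO, against 130 and 118 in WT, with Cyp2e1 (1.49 ± 0.19) and Cyp1a2 (1.01 ± 0.18) called higher of the 5 tested. Periportal markers summed to 338 and 382 in LSKO, against 322 and 301 in WT, with Hal (2.21 ± 0.25) and Pck1 (1.11 ± 0.19) called higher of the 6 tested. The part of this in the 9 genes was not tested, and in such cultures fewer cells of a type and less RNA per cell cannot be told apart.

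**Figure D2:**
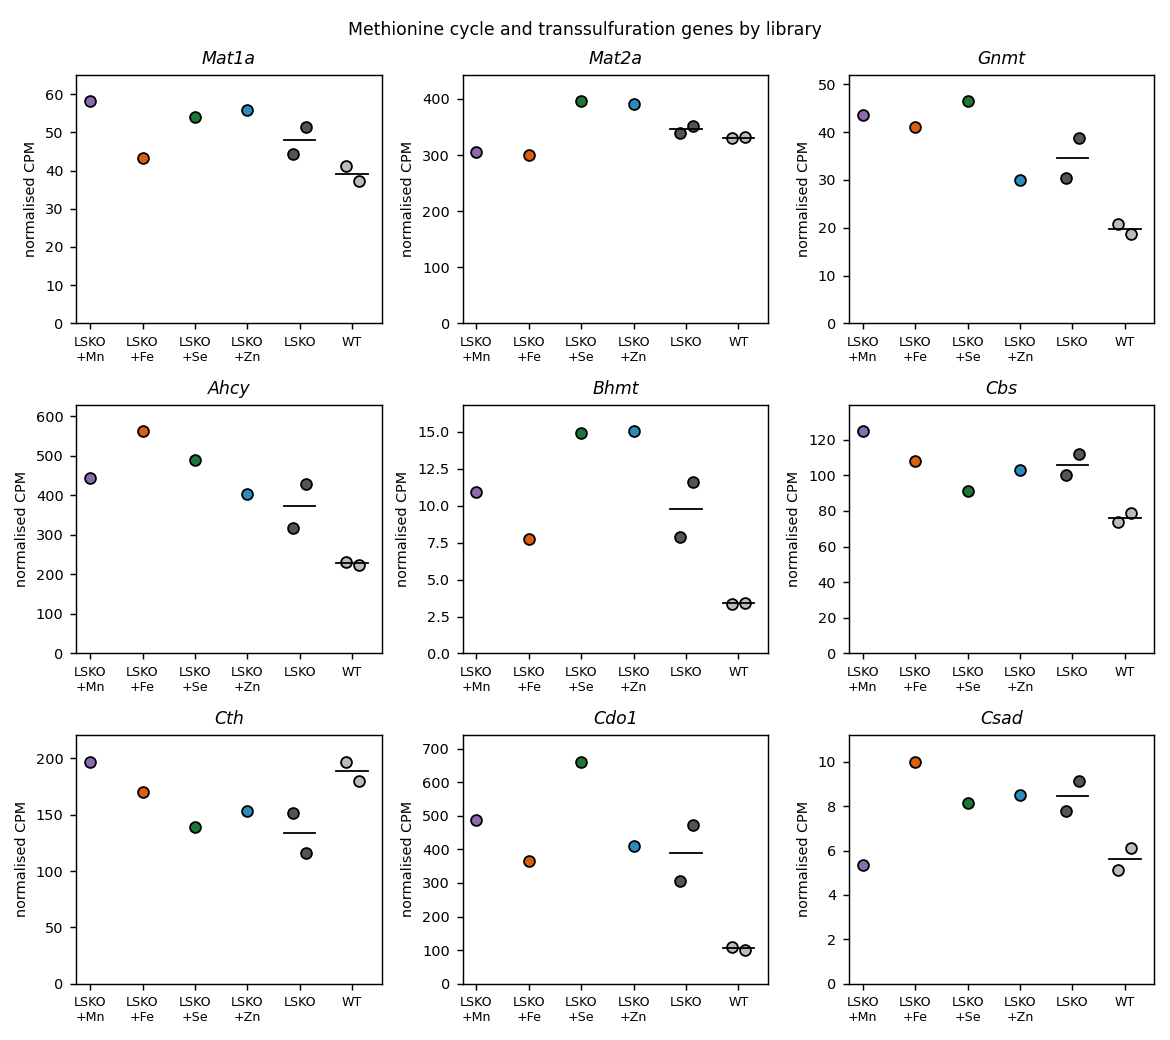
Normalised CPM of the 9 genes by group, each point 1 library, with a line at the mean of groups with 2 libraries and axes that start at 0. Cdo1 lies between 305 and 662 in the 6 LSKO libraries, above the WT libraries at 110.3 and 100.2.

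For SAM synthesis, Mat1a had 44.5 and 51.4 normalised CPM in untreated LSKO cells, against 41.3 and 37.2 in WT. The log2 difference of 0.29 ± 0.10 (SE) did not pass (edgeR adjusted p = 0.0792). Mat2a had 339.6 and 352 in LSKO, against 330.0 and 332 in WT. Its difference of 0.06 had a 95% interval of -0.10 to 0.22 (edgeR adjusted p = 0.605), the narrowest of the 9 genes.

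Gnmt encodes glycine N-methyltransferase, the abundant liver enzyme that uses up surplus SAM. It had 30.4 and 38.9 normalised CPM in LSKO, against 20.8 and 18.7 in WT, a log2 rise of 0.81 ± 0.13 (edgeR adjusted p = 0.00174). Ahcy, the hydrolase that clears S-adenosylhomocysteine, had 317 and 429.7 in LSKO, against 232 and 224 in WT, a log2 rise of 0.71 ± 0.12 (edgeR adjusted p = 0.0028). For both genes, LSKO replicate 2 was further from WT than LSKO replicate 1. The Ahcy call did not hold without WT replicate 1, WT replicate 2 or LSKO replicate 2, where its log2 difference was 0.76, 0.71 and 0.49, and the Gnmt call did not hold without WT replicate 2 (0.75, edgeR adjusted p = 0.0621, within a range of 9.02e-13 to 0.0621 over its alternatives).

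Part of Ahcy's reads could fall on near-identical copies. Gm4737 matches it at 99.7% over 2083 bases and held 991, 2124, 1898 and 1728 reads with manganese, iron, selenite and zinc and 778 and 1183 in untreated LSKO, against 1257 and 994 in WT. Gm9826, another copy, held 33, 270, 273 and 214 reads with the metals in that order and 46 and 59 in untreated LSKO, against 128 and 143 in WT. Its reads thus follow the library split in low-quality and unaligned reads. The part of this in the values with copies added was not tested. With the reads of all such copies added to Ahcy, its LSKO difference was 0.58 and still passed (edgeR adjusted p = 0.00788, within a range of 1.67e-22 to 0.0881 over its alternatives).

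Bhmt transfers a methyl group from betaine to homocysteine. It had 7.89 and 11.6 normalised CPM in LSKO, against 3.37 and 3.45 in WT, from 179 and 316 reads in LSKO against 97 and 79 in WT. The log2 rise was 1.52 ± 0.21 (edgeR adjusted p = 0.000672) and passed under all 15 alternatives. It was the second-largest change among the 9 genes, in a gene of low level.

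In transsulfuration the genes of successive steps differed in direction. Cbs, which condenses homocysteine with serine to cystathionine, had 99.9 and 112 normalised CPM in LSKO, against 73.5 and 78.8 in WT. Cth, which splits cystathionine to cysteine, had 152 and 116 in LSKO, against 197 and 180.3 in WT. The log2 differences of Cbs and Cth, 0.48 ± 0.08 and -0.49 ± 0.11, were both below 0.05 in adjusted p (0.00358 and 0.0146, edgeR). Both were just under the fold threshold of 0.5 in size. They therefore were not called, but changed sides under some alternatives: Cth was called lower under 7 of 15 alternatives and Cbs higher under 4 of 15. Among these, Cth was called without LSKO replicate 1 (-0.67), against -0.30 and no call without LSKO replicate 2. Cbs was called without LSKO replicate 1 (0.59) or WT replicate 2 (0.54), against 0.41 and no call without LSKO replicate 2. The ratio of Cth to Cbs per kb was 4.07 and 2.79 in LSKO, against 7.17 and 6.14 in WT.

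Cdo1 showed the largest difference of the 9 genes. It had 305 and 473 normalised CPM in LSKO, against 110.3 and 100.2 in WT, 2.89 and 4.50 times the WT mean. The log2 rise of 1.89 ± 0.16 (edgeR adjusted p = 3.97e-05) corresponds to 3.69-fold, and 260 of the 15468 genes rose more. It passed under all 15 alternatives, over which the log2 difference ranged from 1.55 to 2.20. Csad, the next enzyme towards taurine, had 7.80 and 9.16 in LSKO, against 5.14 and 6.11 in WT, a rise of 0.60 ± 0.18 (edgeR adjusted p = 0.0432). The Csad call was lost under 5 of 15 alternatives, among them DESeq2 (0.59, adjusted p = 0.283, within a range of 0.00869 to 0.283), and without WT replicate 1 (0.50), WT replicate 2 (0.74) or LSKO replicate 2 (0.49).

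The comparisons of each metal with untreated LSKO cells rest on 1 treated library, so their error comes from the untreated groups. Each metal except zinc gave 1 call among the 9 genes, a different gene each time, and all 3 were rises. Over all genes tested, 2.09%, 3.8%, 7.89% and 2.9% were called higher with manganese, iron, selenite and zinc. In the same order, 15.1%, 4.89%, 9.67% and 1.55% were called lower, so 1 call among 9 genes is near that background. The 4 comparisons share the untreated LSKO libraries, and LSKO replicate 2 lay above replicate 1 for all of the genes but Cth, by up to 1.55 times for Cdo1.

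**Figure D3:**
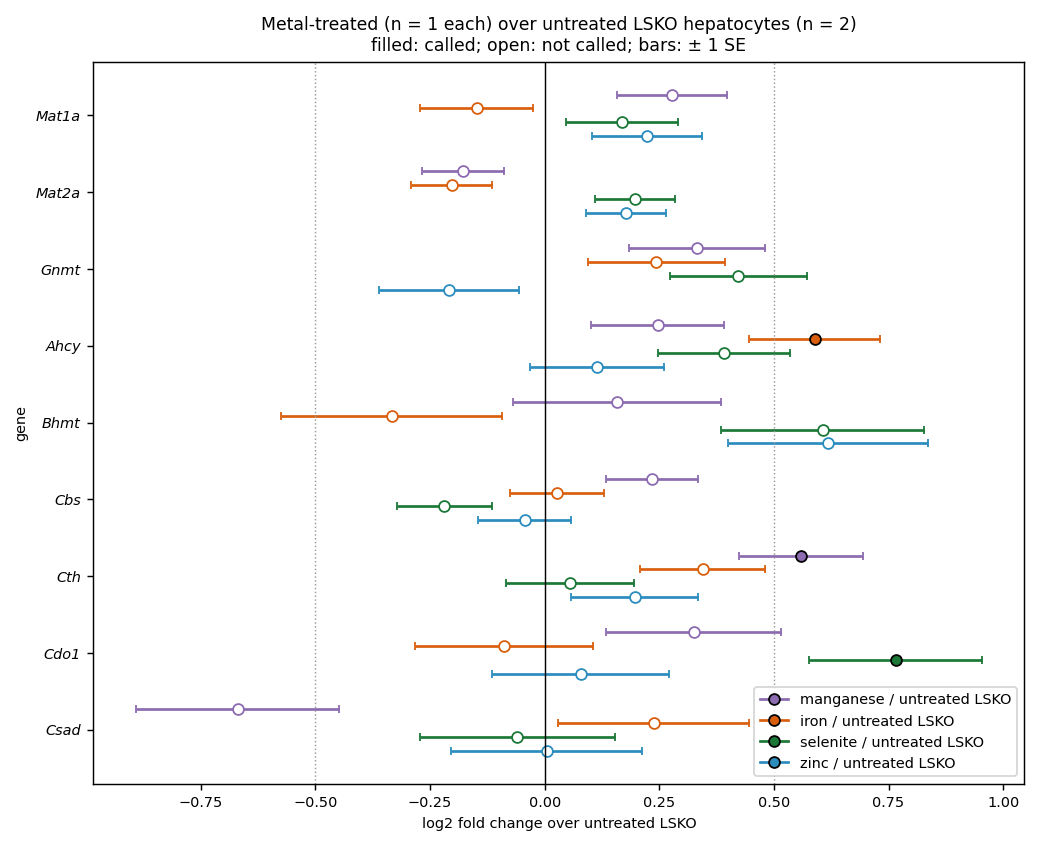
Log2 fold change of each of the 9 genes in metal-treated over untreated LSKO hepatocytes, with bars of ± 1 SE from the edgeR fit, filled points for calls and open points for the rest. The filled points are Ahcy with iron (0.59), Cth with manganese (0.56) and Cdo1 with selenite (0.77).

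With selenite, Cdo1 was at 662 normalised CPM, against 305 and 473 in untreated LSKO, the highest of all 8 libraries. Its log2 rise was 0.77 ± 0.19 (edgeR adjusted p = 0.0143), where 7.89% of all genes were called higher and 9.67% lower. Without LSKO replicate 1 it was 0.43, under the fold threshold. The call was also lost with DESeq2 (0.74, adjusted p = 0.212), with correction for gene length and GC content (0.40), and without WT replicate 1 or 2 (0.72 each). Adjusted p ranged from 1.82e-20 to 0.212 over the alternatives. The hepatocyte marker sum was likewise highest with selenite, at 52458, against 30850 and 38851. Alb alone gave 43256 of it, against 25119 and 31469. Of its 8 genes, 3 were called higher with selenite and 5 were not called. The part of this in Cdo1 was not tested.

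Bhmt was at 14.9 with selenite, against 7.89 and 11.6 in untreated LSKO, a difference of 0.61 ± 0.22 (edgeR adjusted p = 0.0669). Gnmt was at 46.5, against 30.4 and 38.9 (0.42 ± 0.15, edgeR adjusted p = 0.0581), and Ahcy at 489.5, against 317 and 429.7 (0.39 ± 0.14, edgeR adjusted p = 0.0687). None of the 3 passed. With the reads of near-identical copies added, Bhmt (0.72) and Ahcy (0.53) passed. The copies of Ahcy include Gm9826, at 273 reads with selenite against 46 and 59 in untreated LSKO, and its part was not tested. Without LSKO replicate 2, Bhmt (0.88), Gnmt (0.58) and Ahcy (0.59) passed, and without LSKO replicate 1 they were at 0.31, 0.21 and 0.14 and did not. Cth was at 139, between 152 and 116 in untreated LSKO, and Cbs at 91.1, below 99.9 and 112 (-0.22 ± 0.10, edgeR adjusted p = 0.144).

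Iron left Cdo1 at 366, between the untreated LSKO libraries at 305 and 473. Ahcy was at 561 with iron, against 317 and 429.7 in untreated LSKO, and had its highest level there. Its log2 rise was 0.59 ± 0.14 (edgeR adjusted p = 0.0247), with 3.8% of all genes called higher and 4.89% lower. This call was lost without LSKO replicate 1 (0.36), without WT replicate 1 or 2 (0.57 each) and with DESeq2 (0.58, adjusted p = 0.226, within a range of 1.65e-11 to 0.226). With the reads of copies added it was 0.72. Bhmt was at 7.77 with iron, just under 7.89 and 11.6 in untreated LSKO, a difference of -0.33 ± 0.24 that did not pass. Cth was at 169.9, against 152 and 116 in untreated LSKO, with a difference of 0.34 ± 0.14 (edgeR adjusted p = 0.129) that was 0.52 and passed without LSKO replicate 1 and was 0.15 without LSKO replicate 2.

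With manganese, Cth was at 197, against 152 and 116 in untreated LSKO, a level close to those of 197 and 180.3 in WT. Its log2 rise was 0.56 ± 0.14 (edgeR adjusted p = 0.0126), where 2.09% of all genes were called higher and 15.1% lower. The call was lost when gene length and GC content were corrected for (0.49), when LSKO replicate 2 was dropped (0.39) and without WT replicate 1 (0.57, edgeR adjusted p = 0.0504, within a range of 1.76e-10 to 0.0504). Csad was at 5.34 with manganese, below 7.80 and 9.16 in untreated LSKO (-0.67 ± 0.22, edgeR adjusted p = 0.0576), and passed without LSKO replicate 1 (-0.78) but not without LSKO replicate 2 (-0.53). Gnmt (0.54) and Cdo1 (0.69) passed with manganese when LSKO replicate 2 was dropped, and were at 0.17 and 0.04 when LSKO replicate 1 was dropped, against 0.33 and 0.33 with both. Of the exon bases of Csad, 7.26% overlap the opposite-strand gene Zfp740, whereas Cth has no such overlap. The reads in the manganese library were assigned unlike those of the others, and the part of this in both values was not tested.

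With zinc, none of the 9 genes passed in edgeR or DESeq2, where 2.9% of all genes were called higher and 1.55% lower. Bhmt alone had an unadjusted edgeR p under 0.05, 1 gene of the 9. It was at 15.0, against 7.89 and 11.6 in untreated LSKO (0.62 ± 0.22, edgeR adjusted p = 0.158), and passed without LSKO replicate 2 (0.94) but not without LSKO replicate 1 (0.37). The 95% interval of the Cdo1 difference with zinc was -0.35 to 0.50, and that of Ahcy was -0.21 to 0.44.

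Set against WT cells, the metal-treated LSKO libraries differ in both genotype and treatment, and the comparisons share the WT libraries. Of the 9 genes, 6 were called higher with iron, 4 with selenite and 5 with zinc, and none was lower. Over all genes tested, 5.88%, 13.8% and 6.39% were called higher and 4.76%, 12.9% and 3.3% lower with iron, selenite and zinc. Manganese was not compared with WT because of how its reads were assigned. Gnmt, Ahcy, Bhmt and Cdo1 were called higher over WT with each of the 3 treatments, as they were in untreated LSKO.

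**Figure D4:**
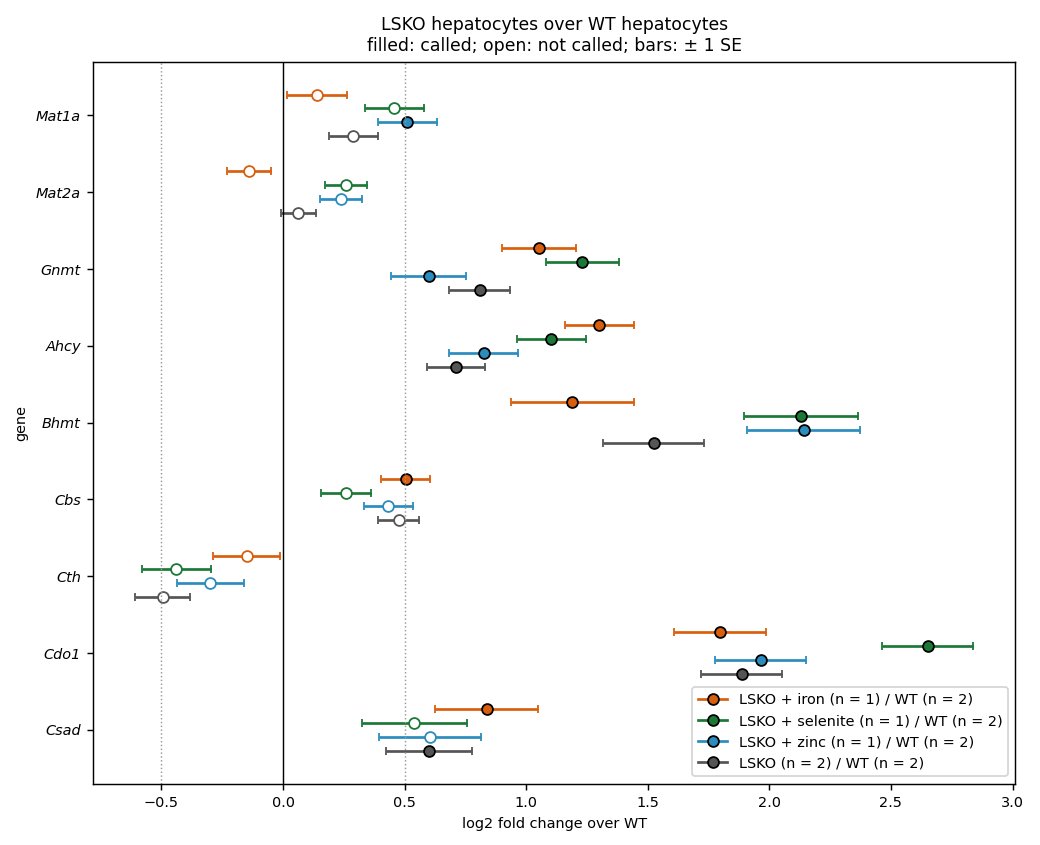
Log2 fold change of each of the 9 genes over WT in iron-, selenite- and zinc-treated and untreated LSKO hepatocytes, with bars of ± 1 SE from the edgeR fit, filled points for calls and open points for the rest. Cdo1 lies farthest to the right with selenite (2.65) and Cth is the gene whose 4 points are all below 0.

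Cdo1 exceeded WT by 1.80 ± 0.19 with iron, 2.65 ± 0.19 with selenite and 1.96 ± 0.19 with zinc on the log2 scale, the selenite value being 6.28-fold. Bhmt exceeded WT by 1.19 ± 0.25, 2.13 ± 0.24 and 2.14 ± 0.23 in the same order. For Ahcy the order differed, with iron highest (1.30 ± 0.14), then selenite (1.10 ± 0.14) and zinc (0.83 ± 0.14). Gnmt exceeded WT by 1.05 ± 0.15 with iron, 1.23 ± 0.15 with selenite and 0.60 ± 0.15 with zinc. Cbs (0.50 ± 0.10) and Csad (0.84 ± 0.21) were called with iron only among the 3, and Mat1a (0.51 ± 0.12) with zinc only. These differences between metals were not tested. For each call named here, edgeR adjusted p was 0.0283 or lower. The single calls depend on the thresholds. Cbs with zinc (0.43, edgeR adjusted p = 0.0198) and Mat1a with selenite (0.46, edgeR adjusted p = 0.0134) missed only the log2 limit of 0.5. Csad with zinc (0.60, edgeR adjusted p = 0.0856) missed only the limit on adjusted p.

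Cdo1 in all 3 treatments, and Bhmt with selenite and zinc, passed under each of the 14 alternatives, as did Ahcy and Gnmt with iron and selenite. Without WT replicate 1 or 2, iron lost Bhmt (1.18 and 1.20), Cbs (0.46 and 0.55) and Csad (0.72 and 0.96), and zinc lost Mat1a (0.62 and 0.46), Gnmt (0.71 and 0.55) and Ahcy (0.88 and 0.82). DESeq2 lost Cbs (0.49) and Csad (0.82) with iron and Mat1a (0.51) and Gnmt (0.60) with zinc. Cbs with iron was lost under 6 of 14 alternatives, among them median-ratio size factors (0.49), no filter (0.48) and another count filter (0.49). The length and GC correction lost Gnmt with zinc (0.46). Mat1a with selenite, at 0.46 ± 0.12, passed without WT replicate 1 (0.52). Cth did not pass in any of the 3, at -0.15 ± 0.14 with iron, -0.44 ± 0.14 with selenite and -0.30 ± 0.14 with zinc. Corrected for gene length and GC content, the selenite difference from WT was -0.95 for Cth (edgeR adjusted p = 0.00192, within a range of 2.25e-05 to 0.142) and 0.61 for Cbs (edgeR adjusted p = 0.00225, within a range of 0.00225 to 0.29), and both were then called, against -0.44 and 0.26 without the correction.

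The selenite library was also set against the mean of the iron and zinc libraries, all of which had the same genotype, dose and time. This comparison was chosen with earlier results of these data known. It uses the same selenite library as the comparison with untreated LSKO, so it is not independent of that one. Cdo1 was at 662 with selenite, against 366 with iron and 411 with zinc, a log2 rise of 0.77 ± 0.19 (edgeR adjusted p = 0.0151). It was the only call among the 9 genes, where 7.53% of all genes were called higher and 8.35% lower. The call was lost with DESeq2 (0.75, adjusted p = 0.169, within a range of 1.27e-13 to 0.169), with the length and GC correction (0.43) and without WT replicate 1 or 2 (0.74 each). Under the length and GC correction Cth was instead the 1 gene called, as lower (-0.62, against -0.21 without it). Gnmt was at 46.5 with selenite, against 41.1 with iron and 30.0 with zinc (0.41 ± 0.15, edgeR adjusted p = 0.0724). Bhmt was at 14.9 with selenite, against 7.77 with iron and 15.0 with zinc, so the zinc level was close to that with selenite and the iron level was lower.

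The genes around the 9 were described in 7 lists, in which every gene was tested. Between untreated LSKO and WT cells, in remethylation and one-carbon supply 3 of 11 genes were higher and none lower, where 6.74% of all genes were higher. Chdh, the choline dehydrogenase that leads to betaine, was at 8.06 and 12.8 normalised CPM in LSKO, against 2.22 and 2.27 in WT (log2 2.22 ± 0.24). Bhmt2, which methylates homocysteine from S-methylmethionine, rose by 0.77 ± 0.20 and Dmgdh, the dehydrogenase of the dimethylglycine that Bhmt leaves, by 0.59 ± 0.13. Mtr, the cobalamin-dependent methionine synthase, and Mtrr, its reductase, were not called, at -0.10 and -0.34. The median of this list was 0.07, against 0.60 for the 9 genes and 0.003 over all genes.

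**Figure D5:**
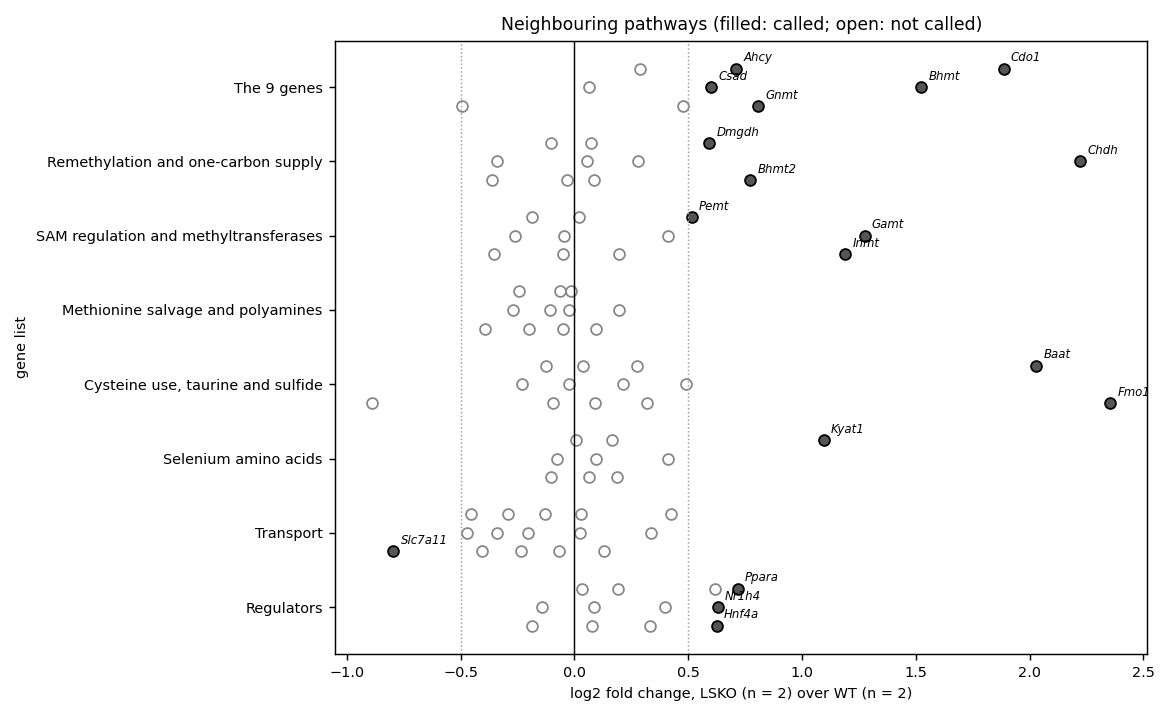
Log2 fold change in untreated LSKO over WT hepatocytes for the 9 genes and for the genes of the 7 surrounding lists, each point 1 gene, filled and named where called and open where not. Fmo1 (2.36), Chdh (2.22) and Baat (2.03) lie farthest to the right and Slc7a11 (-0.80) is the only gene called lower.

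Of the SAM-regulating genes and methyltransferases, 3 of 11 were higher in LSKO. These were Gamt, which makes creatine (1.28 ± 0.26), Inmt, an amine methyltransferase (1.19 ± 0.29), and Pemt, which makes phosphatidylcholine from phosphatidylethanolamine (0.52 ± 0.13). Mat2b, the regulatory subunit of the Mat2a enzyme, and Mettl16, the RNA methyltransferase that controls Mat2a RNA, were not called. None of the 11 genes of methionine salvage and polyamines was called in edgeR, although 3 had an unadjusted p under 0.05, and all 3 were lower. The smallest p was that of Amd1, which decarboxylates SAM for polyamines (-0.39 ± 0.08, edgeR adjusted p = 0.0057), under the fold threshold.

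Of the genes of cysteine use, taurine and sulfide, 2 of 13 were higher, both after the Cdo1 and Csad steps. Beside this and the counts that follow, 6.74% of all genes were higher and 3.7% lower, so that a list with 1 call is near that background. Fmo1, reported to oxidise hypotaurine to taurine, was at 4.45 and 6.99 normalised CPM in LSKO, against 1.15 and 1.09 in WT (2.36 ± 0.28). Baat, which joins bile acids to taurine or glycine, was at 9.07 and 15.7 in LSKO, against 3.12 and 2.97 in WT (2.03 ± 0.25). The glutathione genes Gclc, Gclm and Gss were not called. Of the selenium amino acid genes, 1 of 9 was higher, the transaminase and selenocysteine conjugate lyase Kyat1 (1.10 ± 0.15). Of the transporters, 1 of 15 was lower, the cystine importer Slc7a11, at 124 and 75.7 in LSKO, against 176 and 169 in WT (-0.80 ± 0.17). Of the regulators, 3 of 12 were higher, the nuclear receptors Ppara (0.72 ± 0.18), Nr1h4 (0.63 ± 0.10) and Hnf4a (0.63 ± 0.11). Hnf4a is also 1 of the hepatocyte markers.

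With selenite, 4 of the 15 transporters were lower than in untreated LSKO and none was higher, where 9.67% of all genes were lower and 7.89% higher. The 4 were Slc43a2 (-1.06 ± 0.25) and Slc7a5 (-0.71 ± 0.22), which carry large neutral amino acids including methionine, Slc6a6, the taurine transporter (-0.67 ± 0.12), and Slc1a4, a transporter of small neutral amino acids (-0.55 ± 0.12). Slc6a6 was at 64.6 with selenite, against 111 and 94.9 in untreated LSKO. Ahcyl2, an Ahcy-like protein, fell by 0.54 ± 0.13.

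Higher with selenite were Gadl1 (1.53 ± 0.31), an acidic amino acid decarboxylase related to Csad, Amd1 (0.62 ± 0.09), and Sat1 (0.72 ± 0.09), which acetylates polyamines. Sat1 was also higher with zinc (0.63 ± 0.09). None of the 9 selenium amino acid genes was called with selenite in edgeR, and 2 had an unadjusted p under 0.05, 1 in each direction, the smaller p being that of the transaminase Kyat3 (0.41 ± 0.10, edgeR adjusted p = 0.0121). Among the regulators, Cebpb (-1.10 ± 0.14) and Foxo1 (-0.80 ± 0.13) fell.

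With iron, 3.8% of all genes were called higher than in untreated LSKO and 4.89% lower. Of the 13 genes of cysteine use, 1 was higher and 1 lower, and of the 15 transporters 1 was higher and 2 lower. Of the 12 regulators 1 was higher and 2 lower, and 1 of 11 methyltransferase genes and 1 of 11 salvage genes were lower. A list with 1 call is near that background. Gclm, the modifier subunit of glutathione synthesis, was at 194 with iron, against 125 and 125 in untreated LSKO (0.63 ± 0.09). Slc3a2, the heavy chain that partners Slc7a11, rose by 0.50 ± 0.09. Baat (-1.01 ± 0.30), Nnmt, which methylates nicotinamide (-0.84 ± 0.12), and Apip of the salvage pathway (-0.83 ± 0.17) fell with iron. Of the regulators, Cebpa rose with iron (0.64 ± 0.09), and Nfe2l2 (-0.56 ± 0.09), which drives antioxidant genes, and Nr1h4 (-0.54 ± 0.13) fell. With manganese, Slc7a11 (0.71 ± 0.20) and Slc3a2 (0.53 ± 0.09) both rose, as did Inmt (1.16 ± 0.30), while Cebpb (-1.64 ± 0.14), Nfe2l2 (-0.66 ± 0.09) and Nr1h4 (-0.58 ± 0.13) fell. Gadl1 was called lower with manganese, at 0 reads in that library against 2.29 and 2.24 normalised CPM in untreated LSKO. Over all genes tested, 15.1% were called lower with manganese and 2.09% higher. The reads of this library were assigned unlike those of the others, and the part of this in its calls was not tested. With zinc, Kyat1 (-0.73 ± 0.18), 1 of 9 selenium amino acid genes, and Cebpb (-0.66 ± 0.13), 1 of 12 regulators, fell. Over all genes, 2.9% were called higher with zinc and 1.55% lower.

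Cdo1, Bhmt and Ahcy had the widest log2 range over the 8 libraries, 6.60-, 4.47- and 2.50-fold between the highest and lowest library. For each, the 3 genes with the most similar pattern were sought among 10971 genes of sufficient level, by the root-mean-square difference of their log2 levels, each centred on its own mean. These distances describe 8 libraries that share controls and treatments. Closest to Cdo1 were the cytochrome P450 Cyp3a11 (0.13), the hepatocyte asialoglycoprotein receptor Asgr1 (0.14) and the serpin Serpina3m (0.15), against a median of 0.97 over all genes. Cyp3a11 was at 161, 93.7, 181 and 125 normalised CPM with manganese, iron, selenite and zinc and at 83.2 and 135 in untreated LSKO, against 36.4 and 31.6 in WT, which is the order of libraries seen for Cdo1.

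Closest to Bhmt were Serpina10 (0.13), Hfe2 (0.14) and Mup20 (0.14), the last of which encodes a major urinary protein, against a median of 0.78. Closest to Ahcy were the processed pseudogene Gm5526 (0.08), the cytochrome P450 Cyp1a2 (0.11) and the transcription factor Cebpd (0.11), against a median of 0.50. Cyp1a2 was also among the pericentral markers and was higher in LSKO than in WT (1.01 ± 0.18). Cdo1 and Bhmt were nearer to each other (0.31) than Cdo1 was to Ahcy (0.56) or Bhmt to Ahcy (0.46).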

How the data were processed

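Per the labels, the authors aligned RNA-seq reads to GRCm38 and deposited raw read counts per gene. The submitters' processing notes name Trimmomatic, HISAT2, HTSeq and DESeq2. Neither the annotation release nor the strand setting is given in the sources used here, and the labels and the study's methods differ on read layout. Rows for unassigned reads were left out of library sizes and tests.

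All 8 libraries in 6 groups were fitted together with the quasi-likelihood test of edgeR 4.0.16 (R 4.3.3) after TMM scaling, on genes with at least 80 counts summed over the libraries. This left 15468 genes and 2 residual degrees of freedom, which moderation over genes raised to 10.5. A gene was called at a Benjamini-Hochberg adjusted p under 0.05 over all genes and a log2 difference over 0.5. Normalised CPM are counts relative to the TMM-scaled library size. Errors are SE derived from the fit, as the size of the log2 difference divided by the square root of its F statistic. A group with 1 library borrows its spread from the untreated groups. Replicates differed beyond sampling noise, with a chi-square of their counts of 13.3 per degree of freedom in LSKO and 5.98 in WT. The script was tested on simulated data.

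Besides the 9 genes, at most 4 called genes of a list and comparison with the largest change were named, and the 3 genes most like each of the 3 most variable of the 9 genes. The members, the lists and the comparison of selenite with iron and zinc were chosen with earlier results of these data known. Symbols were matched through GENCODE M21, all 142 found, 1 of them by an older symbol. Near-identical copies were sought with blastn at 90% identity over 500 bases. Some genes of the lists are counted but not reported here by name.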

Additional observations from a re-analysis of the deposited data

How the results depend on the processing

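Depth was no limit for most genes, but each treatment has 1 library and each genotype 2, and the lowest genes, Bhmt and Csad, rest on 79 to 369 and 126 to 249 reads. The alternatives were DESeq2 1.42.0, median-ratio size factors, other count filters, a correction for gene length and GC content, a replicate block, no minimum fold, and leaving out the manganese library or each untreated replicate. Adding the reads of near-identical copies, fitting the untreated libraries alone, leaving out untreated LSKO and a crossed block were chosen after seeing the data. Except where stated, the cause of a change was not tested.

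Of the 9 genes, 5 were called in LSKO against WT, and 3 to 7 when 1 replicate was left out. With manganese against LSKO 1 was called, 2 with no filter, and 0 to 2 with a replicate left out. With iron against LSKO 1 was called, 0 with DESeq2 and 0 to 1 with a replicate left out. With selenite against LSKO 1 was called, 0 with DESeq2 or the length and GC correction, 2 with no filter or the replicate block, 3 with the reads of copies added, and 0 to 4 with a replicate left out. With zinc against LSKO 0 were called, 1 with no filter, and 0 to 1 with a replicate left out. Against WT, iron gave 6 calls, and 3 to 6 with a replicate left out. Selenite gave 4, and 7 with no minimum fold. Zinc gave 5, 3 with DESeq2, and 2 to 6 with a replicate left out. Selenite against the mean of iron and zinc gave 1 call, 0 with DESeq2 and 0 to 1 with a replicate left out. Leaving out the manganese library changed none of its 72 results.

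No called difference changed sign. Among differences not called, the length and GC correction turned Cbs to -0.019 with iron, 0.071 with selenite and 0.019 with zinc, Cth with selenite to -0.40 and Cdo1 with zinc to -0.020, all against LSKO, and Cbs to 0.071 in selenite against the mean of iron and zinc. Leaving out a replicate moved uncalled differences across 0 for 9 results against LSKO, namely from -0.090 to 0.48 for Bhmt with manganese, -0.077 to 0.10 for Cbs and -0.40 to 0.25 for Cdo1 with iron, -0.16 to 0.21 for Cth and -0.22 to 0.029 for Csad with selenite, and -0.094 to 0.36 for Ahcy, -0.13 to 0.051 for Cbs, -0.21 to 0.44 for Cdo1 and -0.11 to 0.14 for Csad with zinc.

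Over all genes, DESeq2 called 1039 in LSKO against WT, against 1615 in edgeR, 750 against 1345 with iron, 1649 against 2717 with selenite and 415 against 688 with zinc over LSKO, 933 against 1646 with iron and 899 against 1500 with zinc over WT, and 1529 against 2456 in selenite against iron and zinc. The length and GC correction left 1386 and 1096 in the 2 selenite comparisons, and no minimum fold gave 4132 and 3715. With no filter, zinc over LSKO gave 1164. Leaving out WT replicate 1 or 2 left 715 and 800 in LSKO against WT, 501 and 666 with iron and 331 and 227 with zinc over WT, and leaving out LSKO replicate 2 left 1000 in LSKO against WT. In manganese over LSKO, 679 of 2923 calls were higher with the length and GC correction, against 324 of 2654 without it, and in zinc over WT 286 of 331 and 203 of 227 without WT replicate 1 or 2, against 989 of 1500.

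The replicate numbers are shared by LSKO and WT, but no label says that a number marks an animal or a day, and the replicate differences of the 2 genotypes correlated at -0.126 over 10971 genes. With the replicate block, 6 of the 9 genes were called in LSKO against WT, as with the crossed pairing.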
